A study of Mus musculus with 43 samples.

Results

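The 47 mitosis and chromosome segregation genes described here are a fixed list of genes whose products drive a cell through mitosis, and all 47 were measured among the 22180 genes of the arrays. Each gene was read through 1 probe set, the one with the highest mean over all arrays among those that carry a single symbol, and the mean over the 47 genes was also taken in each array. Expression was measured on 43 arrays of mouse CD4 T cells from AND TCR transgenic, CD45.1+, Rag2o/o donors, which were transferred into recipients and sorted back as CD4+CD90.2+CD45.1+ cells. The AND receptor sees a peptide of moth cytochrome c (MCC), and iMCC recipients make that peptide on the invariant chain in dendritic cells while they drink doxycycline. They received an anti-CD40 antibody the day before transfer and 100 µg/ml doxycycline at the start. From day 3 the none group drank 0, the low group 10 and the int (intermediate) group 100 µg/ml, and the day 30 off group drank 100 µg/ml until day 10 and 0 after it. The high group came from cMCC recipients, another strain in which MHC-II+ cells make the peptide constitutively at high level, with no doxycycline, and was sorted on day 10 only. For the naive group, AND cells went into non-transgenic recipients without doxycycline and were sorted 3 days later. There were 5 arrays in each of the day 30 groups off, none, low and int, 5 in day 10 none and low, 4 in day 10 int and high (numbered 2 to 5 for high), and 5 in the naive group. Because the high group differs from the iMCC groups in strain, in the cells that present antigen and in doxycycline, these cannot be told apart from the amount of antigen.

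In mitosis, Cdk1 bound to A and B cyclins starts the condensation of chromosomes by condensin and topoisomerase II, kinesins and microtubule factors build the spindle, and kinetochores attach each chromosome to it. The spindle checkpoint holds the anaphase-promoting complex back until every chromosome is attached, and the chromosomal passenger complex then acts on to cytokinesis. Transcripts of these genes are made mainly late in the cell cycle, and are low in resting T cells and high in T cells that divide after meeting antigen. RNA here comes from whole sorted samples, so fewer dividing cells and less RNA per dividing cell cannot be told apart.

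Signals of most of these genes were dim. The overall mean of 21 of the 47 lay above the highest of the array medians (3.28 to 3.44 on the log2 scale), that of 22 lay below the lowest, and 13768 of all 22180 genes had an overall mean below 4. Near this floor fold changes come out too small, so that a gene with no call may still have changed. Aurka (3.48), Nusap1 (3.49) and Plk1 (3.49) are members whose overall mean lay just above the array medians, and Foxm1 (3.42) and Kif11 (3.42) lay within their range.

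The mean log2 signal of the 47 genes was highest in high and naive cells and lowest in day 30 off cells. It was 3.47 ± 0.03 in day 30 off cells, 3.49 ± 0.05 in day 30 none, 3.57 ± 0.06 in day 30 low and 3.60 ± 0.06 in day 30 int cells (SD, n = 5 each). On day 10 it was 3.53 ± 0.05 in none, 3.61 ± 0.03 in low (n = 5 each), 3.71 ± 0.11 in int and 3.99 ± 0.22 in high cells (n = 4 each), and naive cells had 4.08 ± 0.17 (n = 5). High arrays 2 to 5 had 4.05, 4.15, 4.09 and 3.66, and all 4 lay above the 5 none arrays of day 10 (3.48 to 3.59). The first 3 of them also lay above every int array (3.63 to 3.88), while high array 5 lay among the int arrays. Naive arrays 1 to 5 had 3.87, 3.94, 4.20, 4.26 and 4.11. By single genes, 13 of the 47 had their highest group mean in high cells and 27 in naive cells. These means are a description with no test, since the members were chosen with results of these data known.

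**Figure D1:**
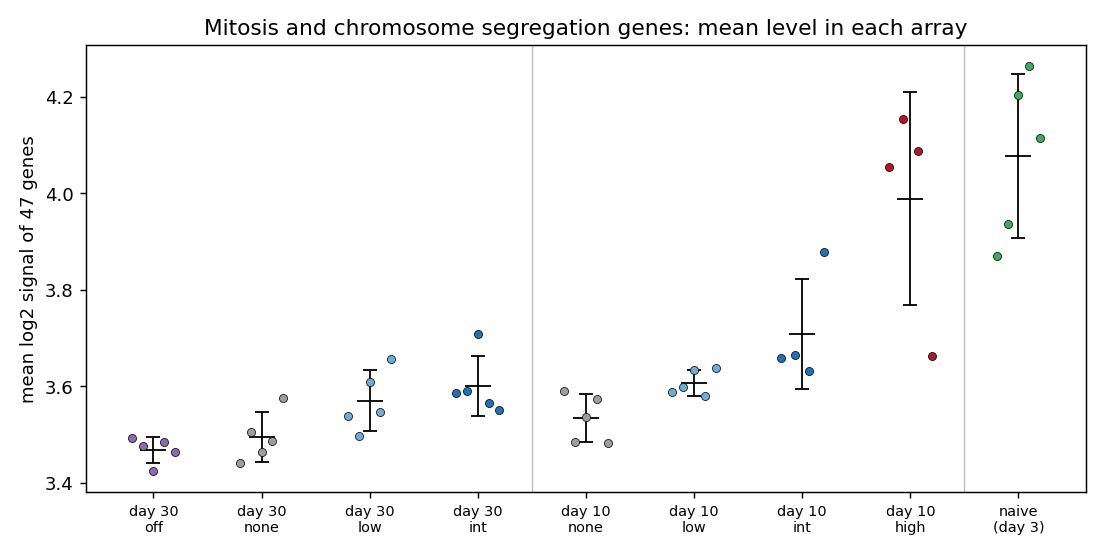
Mean log2 signal of the 47 mitosis and chromosome segregation genes in each of 43 arrays (y axis, log2 units), by group (x axis); each point is 1 array and bars give the group mean ± SD. Of the 4 high arrays 3 lie between 4.05 and 4.15 and high array 5 at 3.66, the naive arrays lie between 3.87 and 4.26, and all other arrays lie at or below 3.88.

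Many of these genes are known to share promoter elements through which the MuvB complexes, with B-Myb and FoxM1 or in the repressing DREAM form, act on them: the cell cycle genes homology region (CHR) near the transcription start and, upstream of it, CCAAT boxes bound by NF-Y. RefSeq promoters (build GRCm38.p6, 250 bases before to 50 after the start) were at hand for 38 of the 47 genes, as 40 sequences since Ect2 and Prc1 had 2 each. The other 9 are Aurkb, Ccna2, Cdca2, Esco2, Foxm1, Kif20a, Smc4, Stmn1 and Tpx2. The promoters of 5 members that were called in several comparisons below are printed to show where these letters fall. They run 5′ to 3′ on the gene's strand, and capitals mark a CHR (TTTGAA or TTCGAA, or TTCAAA on the other strand) or a CCAAT box (ATTGG on the other strand). Top2a lies at chr11:99024140-99024439 on the minus strand, Ccnb2 at chr9:70421505-70421804 on the minus strand, Ube2c at chr2:164769679-164769978 on the plus strand, Kif11 at chr19:37376132-37376431 on the plus strand and Nuf2 at chr1:169531415-169531714 on the minus strand.
Top2a: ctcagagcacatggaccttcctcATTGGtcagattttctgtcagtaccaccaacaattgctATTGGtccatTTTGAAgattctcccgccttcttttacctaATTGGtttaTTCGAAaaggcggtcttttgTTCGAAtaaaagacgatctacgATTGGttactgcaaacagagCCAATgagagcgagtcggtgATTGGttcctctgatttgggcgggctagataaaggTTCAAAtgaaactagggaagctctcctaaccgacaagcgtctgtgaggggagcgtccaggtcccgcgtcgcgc
Ccnb2: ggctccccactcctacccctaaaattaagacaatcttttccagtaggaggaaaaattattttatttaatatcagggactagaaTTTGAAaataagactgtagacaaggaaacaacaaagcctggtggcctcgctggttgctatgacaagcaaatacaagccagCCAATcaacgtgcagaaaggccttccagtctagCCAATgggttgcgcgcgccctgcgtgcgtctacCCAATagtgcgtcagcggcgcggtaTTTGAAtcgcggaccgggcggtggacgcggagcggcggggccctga
Ube2c: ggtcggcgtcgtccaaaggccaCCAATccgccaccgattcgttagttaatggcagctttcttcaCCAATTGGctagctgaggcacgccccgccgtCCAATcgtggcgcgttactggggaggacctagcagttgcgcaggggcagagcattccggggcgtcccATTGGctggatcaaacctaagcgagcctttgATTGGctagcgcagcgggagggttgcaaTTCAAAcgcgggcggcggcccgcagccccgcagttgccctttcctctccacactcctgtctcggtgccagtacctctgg
Kif11: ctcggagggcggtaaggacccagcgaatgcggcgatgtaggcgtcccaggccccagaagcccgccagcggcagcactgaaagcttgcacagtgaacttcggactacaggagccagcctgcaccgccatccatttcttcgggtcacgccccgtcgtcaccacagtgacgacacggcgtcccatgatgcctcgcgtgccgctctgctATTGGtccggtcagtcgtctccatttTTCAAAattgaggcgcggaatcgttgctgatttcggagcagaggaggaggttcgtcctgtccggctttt
Nuf2: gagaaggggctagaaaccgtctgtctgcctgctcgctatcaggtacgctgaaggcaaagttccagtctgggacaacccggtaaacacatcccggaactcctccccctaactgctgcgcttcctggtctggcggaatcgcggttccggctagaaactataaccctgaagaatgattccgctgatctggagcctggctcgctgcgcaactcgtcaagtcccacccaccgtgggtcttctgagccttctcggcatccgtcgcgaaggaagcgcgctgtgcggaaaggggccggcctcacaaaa
Top2a held 4 CHR and 6 CCAAT matches, Ccnb2 had 2 and 3, Ube2c 1 and 6, Kif11 1 of each, and Nuf2 none of either. In Ube2c a CCAAT box on each strand overlap in 1 run of capitals.

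A CHR was found on either strand in 33 of the 40 promoters (82.5%), against 19.2% of all 32851 promoters in the table. Within 50 bases on either side of the start it was in 30 of 40 (75%), against 5.31% of all. A CCAAT box was in 29 (72.5%) against 37.4% of all, and 28 (70%) held both, against 7.52% of all. An E2F-like run (TTCCCGC or TTCGCGC or TTGGCGC) was in 9 (22.5%) against 8.07% of all. The CHR thus stood close to the start in most members, and by 25-base bins it was most frequent just after the start (32.5% of the members' promoters, 1.43% of all). Birc5, Melk, Mybl2, Ncaph, Nuf2 and Nusap1 held neither a CHR nor a CCAAT box in this window. A CHR near the start was in 14 of the 20 genes with a promoter that were called in at least 1 comparison and in 14 of the 18 that were called in none. A match is a run of letters, not a site shown to be bound.

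**Figure D2:**
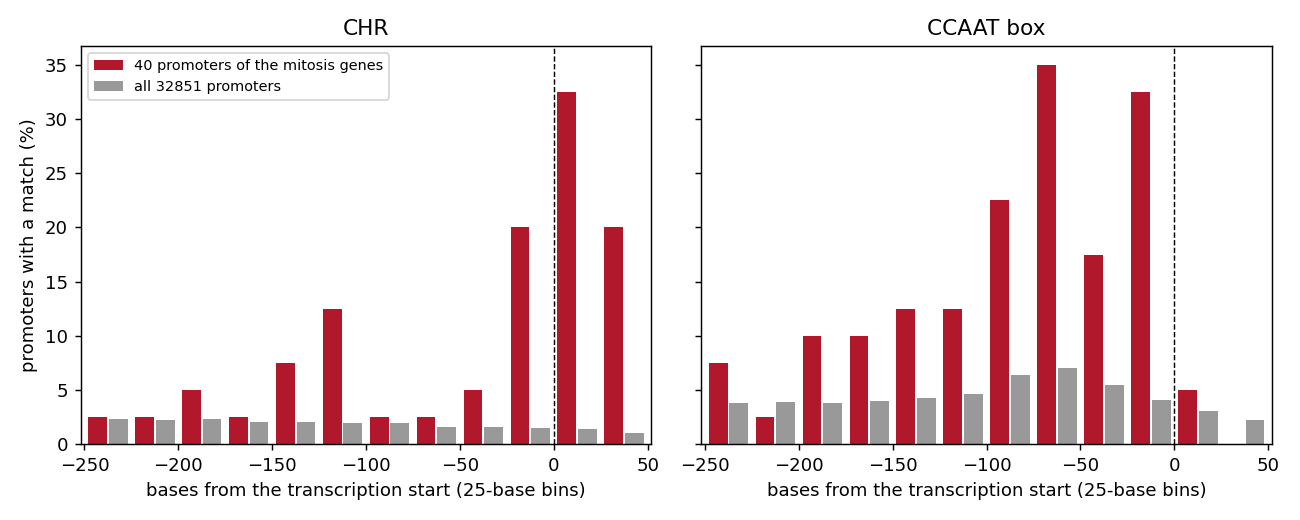
Share of promoters (y axis, %) with a CHR (left) or CCAAT box (right) in each 25-base bin by distance from the transcription start (x axis, bases), for the 40 promoters of the mitosis genes (red) and all 32851 RefSeq promoters (grey). The CHR peaks at 0 to 25 bases after the start (32.5% against 1.43%) and the CCAAT box at 75 to 50 bases before it (35% against 6.99%).

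Single genes were tested with limma in 1 fit over all arrays, and a call means that the p adjusted by Benjamini-Hochberg across the 22180 genes was under 0.05; every adjusted p below is from this fit. Nothing in the labels ties the arrays of a group to different animals. The p-values therefore reflect the spread among these samples only, part of which may be technical.

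High antigen on day 10 went with a rise of 14 of the 47 genes against none, and with a fall of 1, while 32 were not called. That is 31.9% of the members, where 5.25% of all genes were called (2.77% higher, 2.48% lower). The median log2 fold change was 0.36 over the 47 genes and 0.01 over all genes. For 12 genes every high array lay above every none array, as it did for 3.39% of all genes. Of the 15 calls, 8 held whichever single array was left out.

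Top2a, the topoisomerase that untangles sister chromosomes and is made from S phase on, changed most. On day 10 it had 4.47, 4.20, 4.32, 3.84 and 4.32 in none cells, 5.29, 5.02, 4.85, 4.64 and 4.57 in low cells, 5.05, 5.44, 5.05 and 5.76 in int cells, and 6.72, 7.25, 6.98 and 6.92 in high cells (log2 signal). The low, int and high arrays all lay above the none arrays, and the high arrays lay above all others. High was 2.74 ± 0.21 (SE) above none on the log2 scale, a 6.67-fold difference (adjusted p = 4.97e-13), and 1.64 ± 0.22 above int (adjusted p = 1.61e-06). High array 5 (6.92) lay within the range of the other high arrays for Top2a. Mki67, which coats mitotic chromosomes and marks proliferating cells, had 5.24, 5.01, 4.70 and 4.07 in high cells, against 3.98, 3.86, 3.40, 3.34 and 3.48 in none cells. The groups did not overlap, and the difference was 1.14 ± 0.30 (adjusted p = 0.0123), though without high array 2 or 3 the call was lost (adjusted p = 0.0726 and 0.0595). Smc2, an ATPase subunit of condensin, had 6.21, 6.45, 6.46 and 5.74 in high cells, against 5.57, 5.54, 5.33, 5.29 and 5.49 in none cells. High was 0.77 ± 0.19 above none (adjusted p = 0.00914), and without high array 3 or 4 the call was lost (adjusted p = 0.0570 and 0.0523). Of the 6 genes of chromosome structure, 3 rose, Smc4 fell (below), and the condensin subunits Ncaph and Ncapd2 were not called.

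The cyclins were higher under high antigen, but less evenly. Ccnb2, which encodes the mitotic cyclin B2, had 5.45, 6.04, 4.37 and 3.85 in high cells, against 3.65, 3.32, 3.44, 3.45 and 3.70 in none cells. The groups did not overlap, but high arrays 2 and 3 stood far above high array 5 (difference 1.42 ± 0.29, adjusted p = 0.00107). Ccna2 (cyclin A2) had 4.23, 4.39, 5.16 and 3.27 in high cells, against 2.51, 3.16, 3.04, 3.01 and 3.22 in none cells (1.27 ± 0.27, adjusted p = 0.00131). Here high array 5 exceeded the highest none array by little. Cdk1, the kinase that both cyclins activate, had 5.07, 3.71, 5.11 and 3.32 in high cells, against 3.52, 3.24, 3.54, 2.90 and 3.02 in none cells. The groups overlapped (1.06 ± 0.33, adjusted p = 0.0477), and the call was lost without high array 2 or 4 or any 1 of the 5 none arrays, with adjusted p of 0.0530 to 0.241. Plk1 and Aurka, kinases of centrosome and spindle, and Melk were not called. Ube2c, the ubiquitin-conjugating enzyme of the anaphase-promoting complex, had 4.81, 5.29, 5.45 and 3.21 in high cells, against 3.41, 3.40, 3.17, 3.85 and 3.03 in none cells. High array 5 lay among the none arrays and the other 3 above them all (1.32 ± 0.29, adjusted p = 0.00235). The checkpoint genes Bub1, Bub1b and Ttk and the activator Cdc20 were not called, so 1 of the 5 genes of this group passed the test. Bub1 was 0.53 ± 0.17 higher in the mean (adjusted p = 0.0565), and Bub1b 0.37 ± 0.15 (adjusted p = 0.179).

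Of 7 kinesins, 2 rose. Kif15, a motor that helps hold the spindle poles apart, had 4.55, 5.55, 5.40 and 3.95 in high cells, against 2.55, 2.91, 2.97, 2.70 and 2.81 in none cells. All high arrays lay above all none arrays (2.07 ± 0.22, adjusted p = 4.03e-09). Kif11 (Eg5), the motor that pushes the poles apart, had 4.92, 4.59, 4.15 and 3.84 in high cells, against 2.96, 2.80, 3.18, 2.95 and 2.85 in none cells, also without overlap (1.43 ± 0.24, adjusted p = 5.05e-05). Kif4, Kif20a, Kif22, Kif23 and Kif2c, which work on chromosome arms, in the midzone or at kinetochores, lay within -0.19 to 0.14 of none and were not called. At the kinetochore, 1 of 6 genes was called: Nuf2, a subunit of the Ndc80 complex that grips microtubules, had 3.26, 3.56, 3.79 and 3.47 in high cells, against 2.75, 2.73, 2.58, 3.22 and 2.60 in none cells. The groups did not overlap (0.74 ± 0.15, adjusted p = 8.10e-04), while its partner Ndc80 was not called (-0.57 ± 0.45). Birc5 (survivin, 0.66 ± 0.20, adjusted p = 0.0426) and Cdca8 (borealin, 0.49 ± 0.14, adjusted p = 0.0311) of the passenger complex rose, and its kinase Aurkb was not called. Ect2, the exchange factor that switches on RhoA for cytokinesis (0.55 ± 0.16, adjusted p = 0.0309), and the spindle factor Hmmr (0.41 ± 0.11, adjusted p = 0.0142) rose as well. Each of these last 4 genes lost its call on leaving out some single arrays, with adjusted p of up to 0.112 for Hmmr and 0.170 for Ect2.

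**Figure D3:**
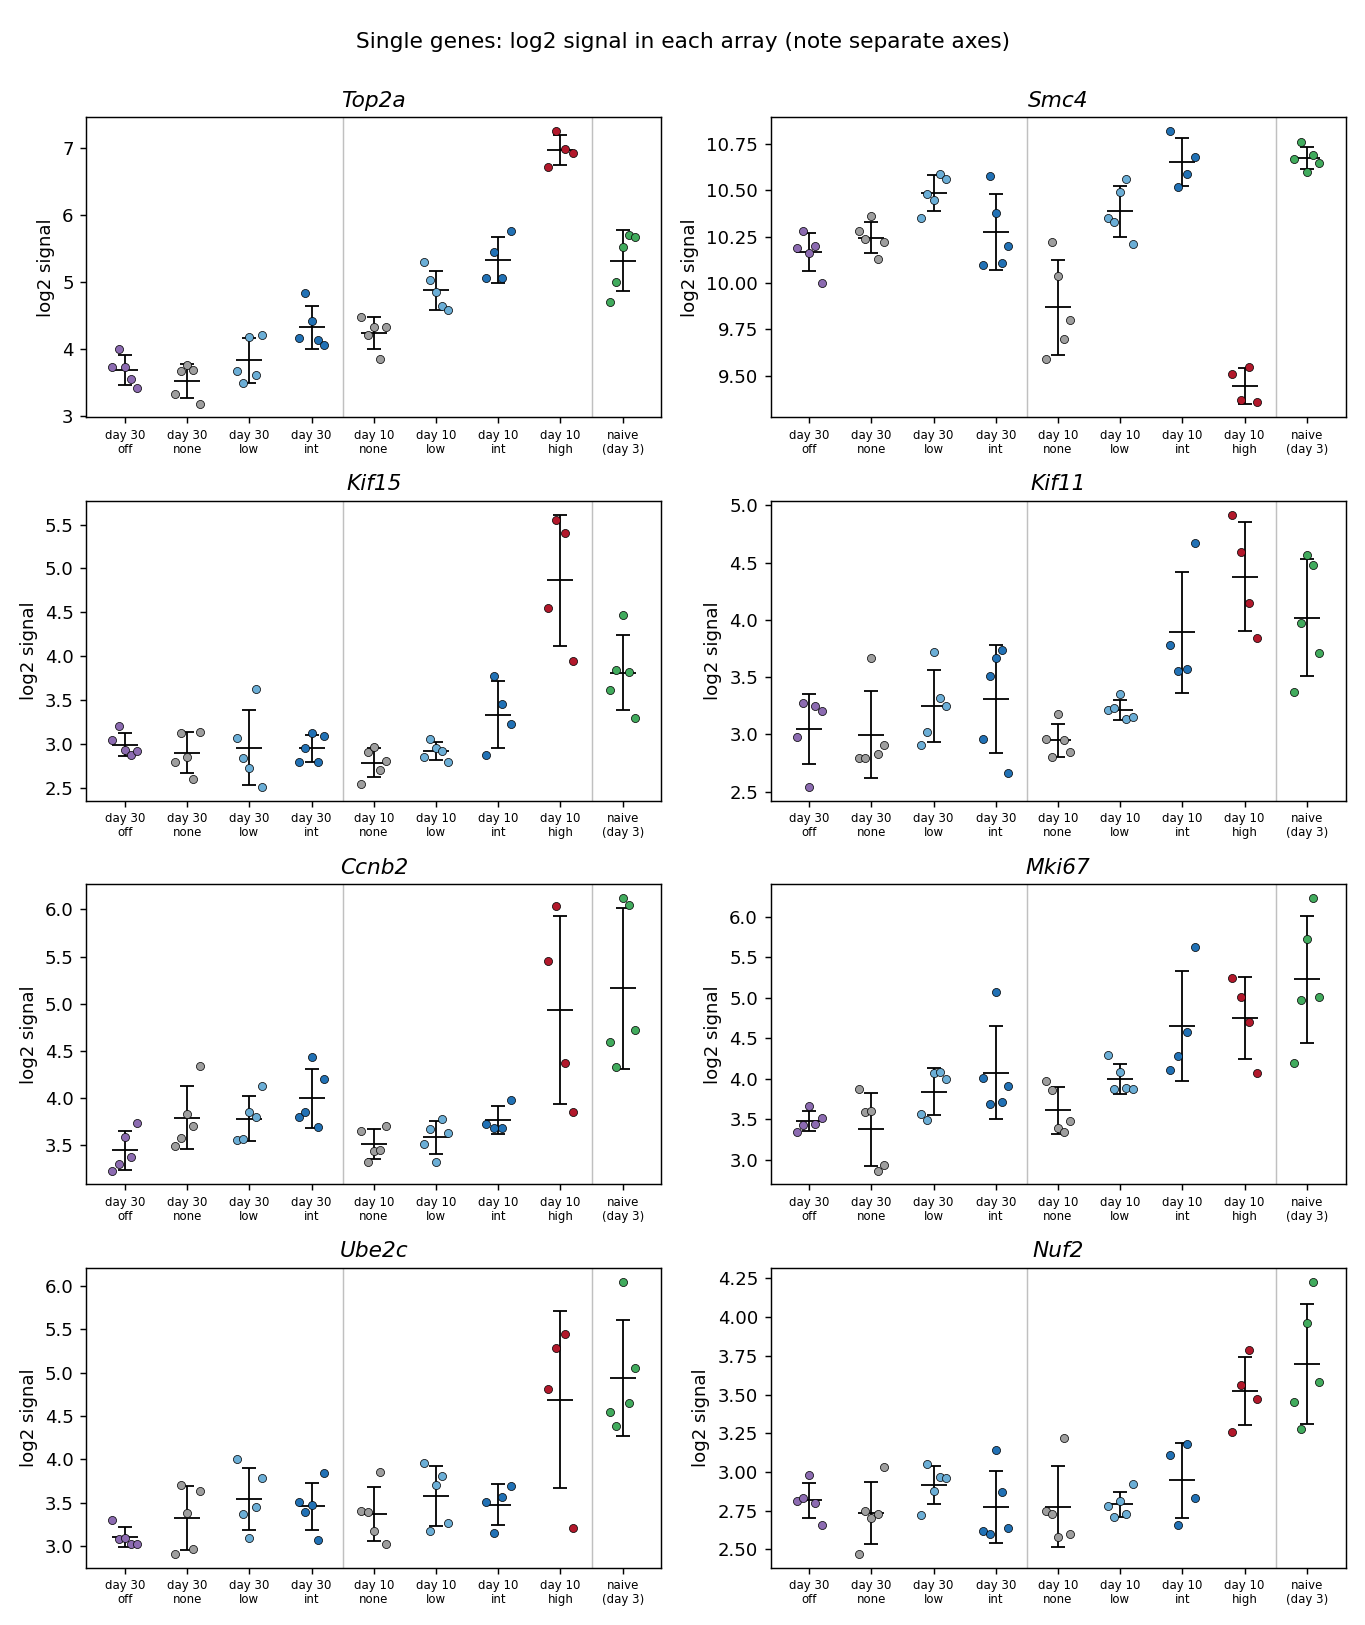
Log2 signal (y axis, separate for each gene) of 8 member genes in each of the 43 arrays, by group (x axis); points are arrays and bars the group mean ± SD. Top2a is highest in all 4 high arrays (6.72 to 7.25), Smc4 is lowest in them (9.36 to 9.55), and high array 5 lies low for Ccnb2 (3.85) and Ube2c (3.21).

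Markers of other cells were set beside this comparison as summed linear signals, given in log2. The 8 measured of 10 B and plasma cell markers summed to 6.99 to 7.64 in high arrays and 6.54 to 7.00 in none arrays of day 10. The 12 myeloid and dendritic markers summed to 8.76 to 9.40 and 8.25 to 9.98, and the 5 measured of 8 CD8, NK and gamma-delta T cell markers to 6.26 to 7.33 and 6.13 to 6.43. In each list 1 marker was called higher in high than in none cells. Pou2af1, a coactivator in B cells, had means of 6.74 in high and 5.55 in none cells (adjusted p = 0.0391). Cst3 (cystatin C) had 8.58 and 7.72 (adjusted p = 0.0300), and Klrb1c, an NK cell receptor, 5.86 and 4.26 (adjusted p = 1.41e-04). Of the 4 T cell markers of the sort, Thy1 (CD90) was lower, with means of 10.13 in high and 11.20 in none cells (adjusted p = 4.19e-09). From the B and plasma cell list Ms4a1, Jchain and Ebf1 lay at or below the array median on all 4 high arrays. So did Csf1r, Itgam, Itgax, Cd14 and H2-Ab1 from the myeloid and dendritic list. Pou2af1, S100a8, S100a9 and Cst3 lay above it on all 4, and the rest of both lists on some. The part of such cells in the result was not tested.

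Set against int on day 10, high cells had 7 of the 47 genes higher and 1 lower (2.99% of all genes called, 1.4% higher). Besides Top2a these were Kif15 (1.53 ± 0.23, adjusted p = 1.75e-05), Ube2c (1.21 ± 0.31, adjusted p = 0.0159), Ccnb2 (1.16 ± 0.31, adjusted p = 0.0241), Ccna2 (1.11 ± 0.28, adjusted p = 0.0162), Mybl2 (0.62 ± 0.15, adjusted p = 0.0117) and Nuf2 (0.58 ± 0.16, adjusted p = 0.0325). Mybl2 encodes B-Myb, a transcription factor of late cell cycle genes; it had 3.42, 3.89, 3.35 and 3.34 in high cells, against 2.97, 3.03, 2.81 and 2.73 in int cells. It was not called against none cells, which had 3.59, 3.01, 3.58, 3.18 and 2.93. The Mybl2 call against int was lost without high array 3 (adjusted p = 0.108) or int array 4 (adjusted p = 0.0545). It was also lost with the mean of its probe sets and with only the groups compared in the fit. Ccna2, Ccnb2, Ube2c and Nuf2 lost their calls against int on leaving out some single arrays too. For Ube2c, Ccnb2 and Ccna2 high array 5 lay among the int arrays. The count of calls was 3 without high array 3, and 5 without high array 4 or int array 2. Mki67, Kif11 and Smc2 were not called between high and int.

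Under int antigen, 4 of the 47 genes were higher than in none cells on day 10 and 0 lower (1.24% of all genes called, 0.784% higher). The median log2 fold change was 0.11 over the members and -0.01 over all genes. Top2a was 1.10 ± 0.21 higher (adjusted p = 0.00135). Kif11 had 3.78, 3.55, 3.57 and 4.67 in int cells, all above the 5 none arrays, with int array 4 well above the rest (0.94 ± 0.24, adjusted p = 0.0304). Smc2 had 6.37, 6.35, 5.65 and 6.53 in int cells, also all above none (0.78 ± 0.19, adjusted p = 0.0249). Without int array 4 neither Kif11 (adjusted p = 0.305) nor Smc2 (adjusted p = 0.162) was called, and other single arrays also ended these calls. Mki67 was higher in the mean by 1.04 ± 0.30 but was not called (adjusted p = 0.0737). It had 4.11, 4.28, 4.58 and 5.63 in int cells, and every int array lay above every none array. Ccnb2, Ccna2 and Ube2c, which were higher in high than in int cells, were not called here. B and plasma cell markers summed to 7.34 to 7.87 in int arrays and 6.54 to 7.00 in none arrays, and myeloid markers to 7.95 to 8.98 and 8.25 to 9.98. Of the 8 B and plasma cell markers Pou2af1 was called (means of 7.10 in int and 5.55 in none cells, adjusted p = 0.0122), while Cd79a had means of 3.55 and 3.43, Cd79b 3.06 and 3.42, and Ms4a1 2.61 and 2.63. The part of such cells in the result was not tested.

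Low antigen gave 1 call on day 10, Smc4, which was also the only gene called among all genes (0.00451%). Top2a had a difference of 0.64 ± 0.20 between low and none, with no overlap of arrays, but an unadjusted p of 0.00230 and an adjusted p above 0.99. At an unadjusted p under 0.05, 4 members were higher and 1 lower, where 3.43% of all genes passed. That member is Foxm1, a transcription factor of mitotic genes, which was lower in all 5 low arrays than in any none array (-0.46 ± 0.14) and was not called.

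Smc4 was the 1 member called lower in high than in none cells. This ATPase subunit pairs in condensin with Smc2, which was higher in both int and high than in none cells. The signal of Smc4 was far above the array median in every array. It had 9.59, 10.22, 10.04, 9.70 and 9.80 in none cells of day 10, 10.35, 10.33, 10.49, 10.56 and 10.21 in low cells, 10.82, 10.52, 10.59 and 10.68 in int cells, and 9.51, 9.37, 9.55 and 9.36 in high cells. Int arrays all lay above the none arrays, and high arrays all lay below every other array of the study. Smc4 was higher in low than in none cells by 0.52 ± 0.09 (adjusted p = 0.0382) and in int than in none cells by 0.78 ± 0.10 (adjusted p = 1.24e-06). High cells were lower than none by 0.42 ± 0.10 and lower than int by 1.21 ± 0.10 on the log2 scale (adjusted p = 0.00454 and 2.81e-11). The call for low was lost on leaving out any of 7 of the 10 arrays of that comparison, low arrays 1 to 4 and none arrays 1, 4 and 5, with adjusted p of 0.0860 to 0.399; those for int and high held on each. On day 30 Smc4 lay at 10.17 ± 0.10 in off cells, 10.25 ± 0.08 in none, 10.49 ± 0.10 in low and 10.27 ± 0.20 in int cells (SD, n = 5 each). It was not called in low, int or off against none cells or in off against int cells of day 30, and off and int cells were not tested against low cells. The effect of int antigen differed between the days: int minus none was lower on day 30 than on day 10 by 0.75 ± 0.14 (adjusted p = 0.00484), the only member among the 20 genes with such a difference (0.0902%), and the call held whichever single array was left out. On day 10, then, Smc4 and Top2a were both higher in int than in none cells, whereas in high against int cells Top2a was higher and Smc4 lower.

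On day 30 few of these genes were called between antigen groups, as was so for all genes. Int antigen gave 1 call, Top2a, which is 2.13% of the members, near the 2.21% of all genes called. Low antigen gave 0 by limma (0.654% of all genes). Top2a had 4.16, 4.83, 4.41, 4.13 and 4.05 in int cells, against 3.32, 3.67, 3.76, 3.68 and 3.18 in none cells. The arrays did not overlap, and the difference was 0.79 ± 0.20 (adjusted p = 0.0181), but without int array 2 or none array 1 or 5 the call was lost (adjusted p = 0.0886, 0.0528 and 0.0698). Smc2 had 5.98, 6.16, 6.10, 5.82 and 6.34 in int cells, against 5.49, 5.41, 5.33, 5.59 and 5.46 in none cells. Its arrays did not overlap either, but it missed the threshold (0.62 ± 0.18, adjusted p = 0.0587). Cenpe, a kinetochore motor, differed by 0.52 ± 0.17 (adjusted p = 0.0933). Mki67 had 4.01, 3.69, 5.07, 3.71 and 3.91 in int cells, against 3.88, 3.59, 3.60, 2.87 and 2.94 in none cells, and int array 3 stood apart (0.70 ± 0.28, adjusted p = 0.232). B and plasma cell markers summed to 6.96 to 7.85 in int arrays of day 30, highest in int array 3, and to 6.46 to 6.77 in none arrays. Pou2af1 was the 1 marker of 8 called (1.48 ± 0.34, adjusted p = 0.00679). No other marker of that list exceeded 3.72 in int arrays or 4.10 in none arrays. The part of such cells in the result was not tested. Between low and none the unadjusted p was under 0.05 for 3 members, all higher in low, where 11.0% of all genes passed.

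Cells taken off antigen on day 10 were set against the none and int groups of day 30, and no member was called in either comparison. Limma called 0 of 47 genes between off and none on day 30 (0.266% of all genes). The unadjusted p was under 0.05 for 1 higher and 2 lower members, where 11.1% of all genes passed. Top2a had 3.73, 4.00, 3.72, 3.54 and 3.41 in off cells, which overlapped the none arrays. Smc2 had 5.80, 5.90, 6.46, 5.82 and 5.83 in off cells, all above the none arrays (0.51 ± 0.18, adjusted p = 0.253). Against int cells of day 30, off cells also had 0 calls (0.464% of all genes). At an unadjusted p under 0.05, 0 members were higher and 6 lower, where 7.58% of all genes passed. Top2a was 0.64 ± 0.20 lower in off than in int cells, with no overlap of arrays and no call (adjusted p = 0.212). Mki67 had 3.35, 3.43, 3.67, 3.44 and 3.52 in off cells, all below the int arrays, and was not called (-0.60 ± 0.28, adjusted p = 0.617). The myeloid genes S100a8 (3.44 ± 0.79, adjusted p = 0.0365) and S100a9 (2.87 ± 0.67, adjusted p = 0.0458) were higher in off than in none cells, and their part was not tested. A p that misses the threshold does not show equal levels.

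Day 30 cells were compared with day 10 cells of the same schedule, where day and series of sorts cannot be told apart. In int cells Top2a was lower on day 30 by 1.01 ± 0.21 (adjusted p = 0.00953), the only member called (0.712% of all genes), and without int array 4 of day 10 it was not called (adjusted p = 0.0561). In none cells Top2a was lower on day 30 (-0.71 ± 0.20, adjusted p = 0.0361) and Smc4 higher (0.38 ± 0.09, adjusted p = 0.0178), with 3.43% of all genes called. The Top2a call was lost without any of none arrays 1, 2, 3 and 5 of day 10 or 1 and 5 of day 30 (adjusted p of 0.0645 to 0.0989), and the Smc4 call without none array 1 of day 10 (adjusted p = 0.0772). In the test of whether the low effect differed between the days, limma called 0 members (0.0316% of all genes). The unadjusted p was under 0.05 for 3 higher and 1 lower, where 5.45% of all genes passed.

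Naive cells had higher levels of many of these genes than briefly primed cells. Of the 47, 0 were higher and 19 lower in day 10 none cells than in naive cells (3.3% of all genes called, 1.41% lower), and 0 were higher and 20 lower in day 30 none cells (4.33% called, 2.35% lower). In day 10 int cells 0 were higher and 9 lower than in naive cells (3.15% called, 1.01% lower). Naive cells differ in time after transfer, recipient and doxycycline too, and these cannot be told apart. Some naive arrays also had more signal from markers of other cells. B and plasma cell markers summed to 6.54 to 7.00 in day 10 none arrays and 6.46 to 6.77 in day 30 none arrays, against 6.89, 7.12, 9.86, 8.72 and 8.54 in naive arrays 1 to 5. Myeloid and dendritic markers summed to 8.25 to 9.98 in day 10 none arrays and 8.80 to 9.38 in day 30 none arrays, against 8.77, 8.30, 11.84, 11.36 and 9.47 in naive arrays. Naive arrays 3, 4 and 5 were thus high for B cell markers, and arrays 3 and 4 for myeloid ones as well. Cd79a, a chain of the B cell receptor, ranged from 3.02 to 4.08 in day 10 none arrays, against 3.95 to 7.68 in naive arrays. On all 5 naive arrays Itgam, Itgax, Cd14 and Ebf1 lay at or below the array median. Cd79a, Pou2af1, S100a8, S100a9, Cst3, Mpo and H2-Ab1 lay above it on all 5, and the rest of these lists on some. H2-Ab1, an MHC class II gene of antigen-presenting cells, was lower in every none array of day 10 (2.74 to 3.28) and day 30 (3.12 to 3.53) than in any naive array (3.74 to 6.93), so naive arrays 1 and 2 were not free of such signal. Its part in the naive results was not tested. Counts of members are therefore given with all 5 naive arrays, without arrays 3 and 4, and without arrays 3, 4 and 5, which leaves 2; single genes are given with all 5 and without arrays 3 to 5. The last setting was added after the data had been seen.

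Nusap1, which stabilizes microtubules around chromosomes, had 2.72, 3.02, 3.25, 3.34 and 3.02 in day 10 none cells, against 3.63, 4.19, 4.78, 5.26 and 5.76 in naive cells. The groups did not overlap, and naive arrays 3 to 5 lay highest (-1.65 ± 0.27, adjusted p = 3.46e-05). Without arrays 3 to 5 the difference was -0.84 ± 0.29 (adjusted p = 0.288). Ccnb2 had 4.59, 4.33, 6.12, 6.05 and 4.72 in naive cells, all above the day 10 none arrays (-1.65 ± 0.28, adjusted p = 7.56e-05; without arrays 3 to 5, -0.95 ± 0.31 and 0.196). Ccna2 had 4.22, 4.08, 4.17, 5.39 and 5.09 in naive cells (-1.60 ± 0.25, adjusted p = 2.72e-05; without arrays 3 to 5, -1.16 ± 0.31 and 0.0522). Naive arrays 1 and 2 lay above the highest none array (3.22) in Ccna2 too. Mki67 had 4.20, 4.97, 5.72, 6.23 and 5.01 in naive cells (-1.61 ± 0.28, adjusted p = 1.29e-04, and -0.97 ± 0.33 with 0.267 without arrays 3 to 5). Ube2c had 4.55, 4.38, 6.05, 4.65 and 5.05 in naive cells (-1.56 ± 0.27, adjusted p = 1.60e-04, and -1.09 ± 0.33 with 0.138 without arrays 3 to 5). Top2a had 4.69, 5.00, 5.52, 5.70 and 5.67 in naive cells (-1.09 ± 0.20, adjusted p = 3.00e-04, and -0.61 ± 0.25 with 0.512 without arrays 3 to 5). In each of these genes every naive array lay above every day 10 none array. They are the members with the largest differences in this comparison, and the share of all genes without overlap is not given here. Smc4 was lower in day 10 none cells (9.59 to 10.22) than in naive cells (10.60 to 10.76), where its arrays lay close together (-0.80 ± 0.09, adjusted p = 4.10e-08, and -0.84 ± 0.13 with 2.61e-05 without arrays 3 to 5). Cdca8 likewise had 2.65 to 3.07 in day 10 none cells, against 3.53 to 3.81 in naive cells (-0.88 ± 0.14, adjusted p = 1.71e-05, and -0.82 ± 0.18 with 0.0103 without arrays 3 to 5).

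Without naive arrays 3 and 4, 10 genes were called lower than naive in day 10 none cells, 11 in day 30 none cells and 2 in day 10 int cells. Without arrays 3, 4 and 5 the counts were 2 (Cdca8 and Smc4), 5 (Ccna2, Nuf2, Smc4, Stmn1 and Top2a) and 0. Fewer naive arrays make a call harder for any gene, and the shares of all genes called in these settings are not given here. How far the loss of arrays alone lowered the counts was not tested. The module means of naive arrays 1 and 2 (3.87 and 3.94) still lay above every none array of day 10 and day 30 (3.44 to 3.59). In day 30 none cells the largest differences from naive were those of Mki67 (-1.85 ± 0.28, adjusted p = 1.50e-05, and -1.21 ± 0.33 with 0.0521 without arrays 3 to 5), Top2a (-1.79 ± 0.20, adjusted p = 1.56e-08, and -1.32 ± 0.25 with 9.58e-04) and Ube2c (-1.61 ± 0.27, adjusted p = 1.19e-04, and -1.14 ± 0.33 with 0.0740). Stmn1 (stathmin), which takes microtubules apart, was lower in day 30 none cells too (-1.10 ± 0.19, adjusted p = 2.13e-04, and -0.93 ± 0.22 with 0.0181 without arrays 3 to 5). Aurka and Ttk were called on day 30 and not on day 10, and Hmmr the reverse; whether the days differ in them was not tested. Both none groups share the naive arrays, so the results of the 2 days are not independent.

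High cells were called different from naive cells in 3 members, 2 higher and 1 lower. That is 6.38% of the members, near the 4.82% of all genes called. Top2a was higher in high than in naive cells by 1.65 ± 0.21 (adjusted p = 1.55e-07) and Kif15 by 1.05 ± 0.22 (adjusted p = 0.00115), while Smc4 was lower by 1.23 ± 0.10 on the log2 scale (adjusted p = 8.69e-13). Kif15 had 3.62, 3.84, 4.47, 3.82 and 3.30 in naive cells, so that the groups overlapped for it and not for Top2a and Smc4. All 3 calls held without naive arrays 3, 4 and 5. Without high array 2, 5 members were called.

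**Figure D4:**
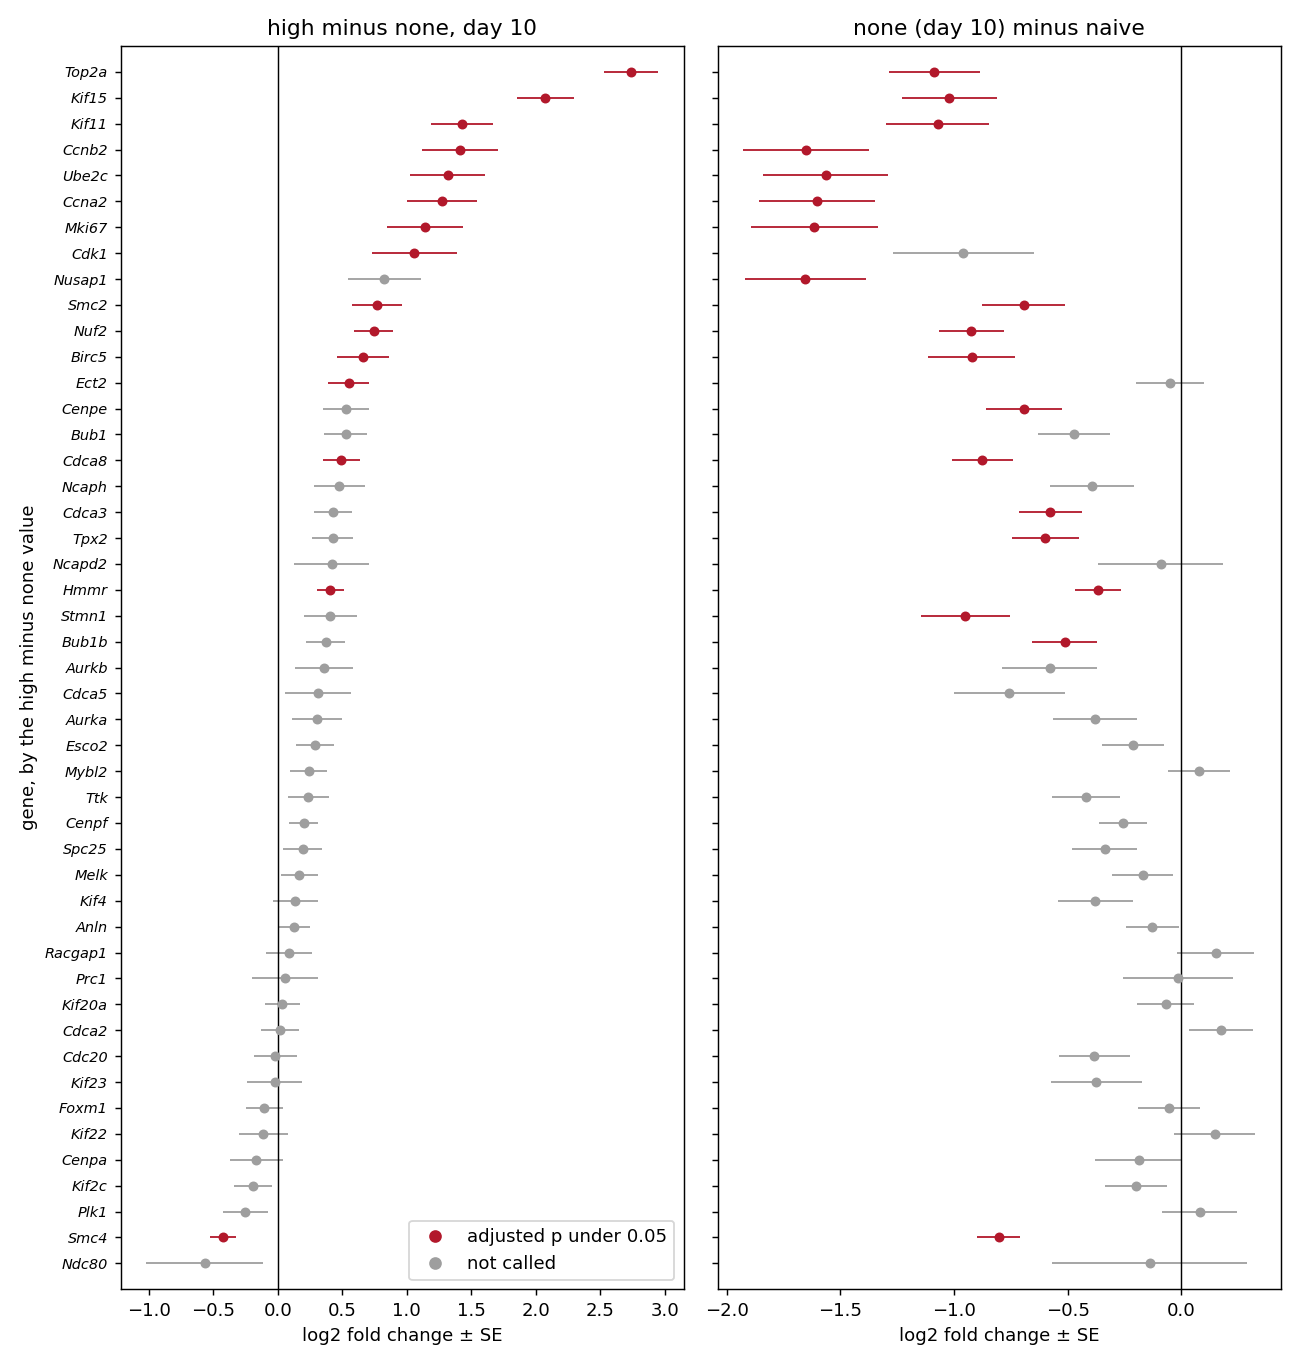
Log2 fold change ± SE (x axis) of each of the 47 genes (y axis, ordered by the left panel) for high minus none on day 10 (left) and day 10 none minus naive (right); red points had an adjusted p under 0.05. On the left 14 genes are called higher and Smc4 lower, and on the right 19 are called lower and 0 higher.

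**Figure D5:**
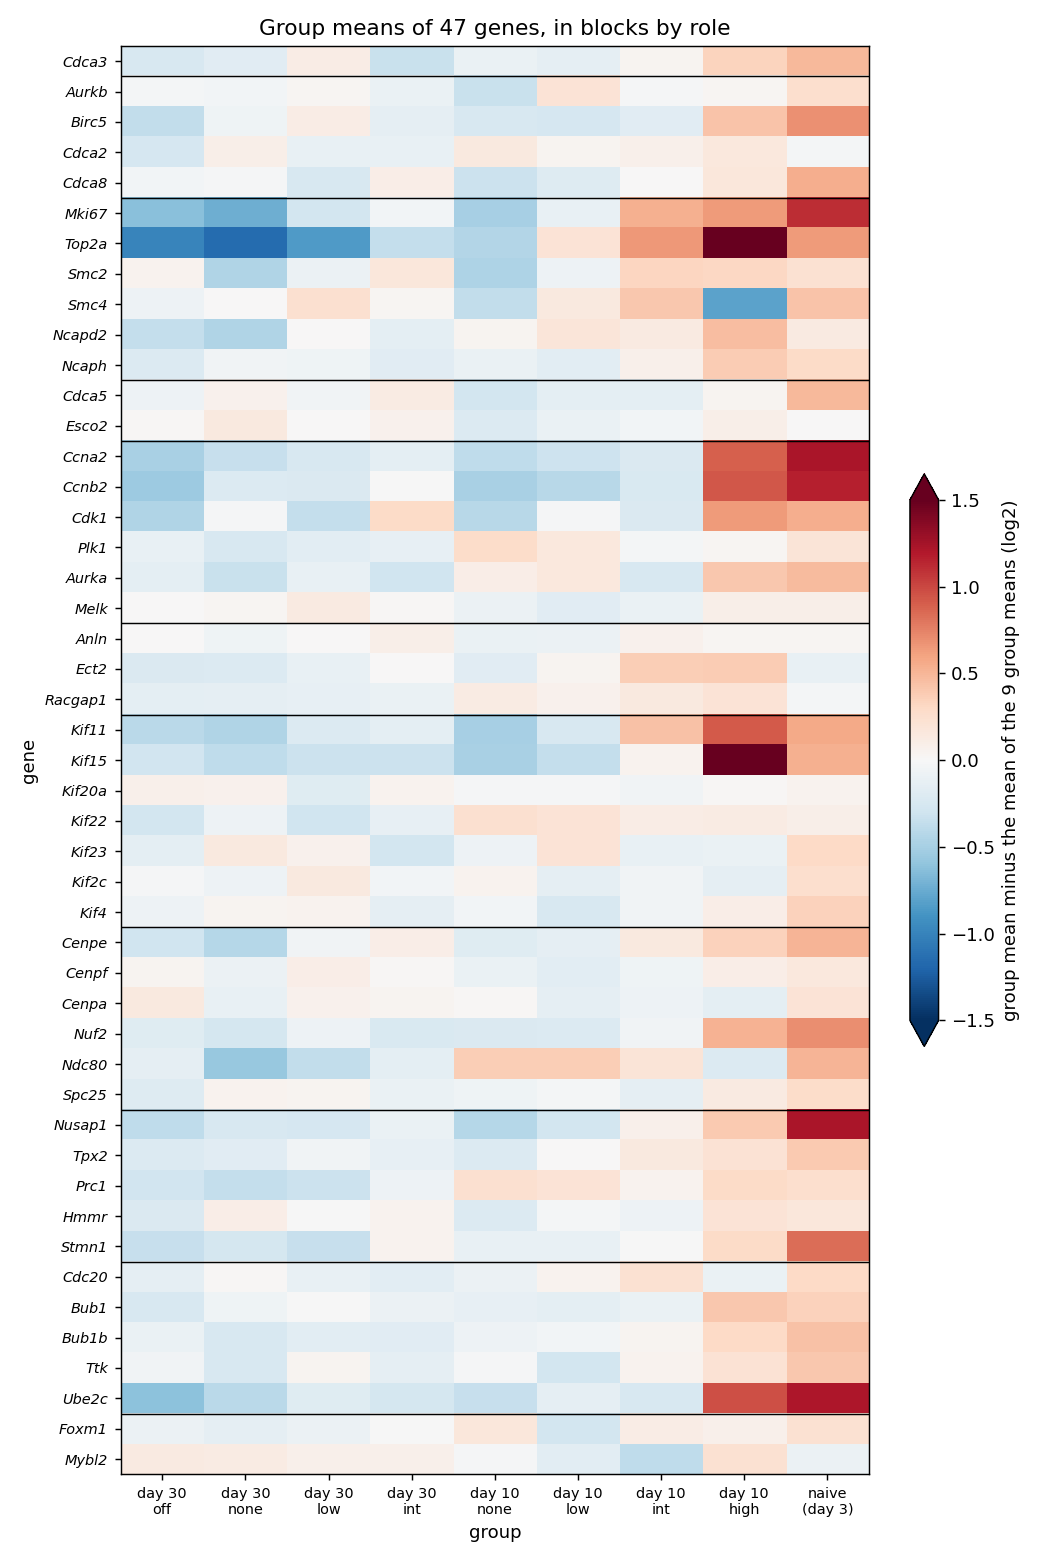
Group mean minus the mean of the 9 group means (colour, log2 units, clipped at 1.5) for each of the 47 genes (y axis, in blocks by role) in each group (x axis). The high and naive columns hold the strongest reds, Smc4 is blue in high cells, and the cohesion, cytokinesis and transcription factor blocks are pale.

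Over the 14 differences between groups, Top2a was called in 9 and Smc4 in 8, while Kif15, Ube2c, Nuf2, Ccnb2 and Ccna2 were called in 5 each. Another 23 members were called in none. These 23 hold the checkpoint kinase Bub1 and the activator Cdc20, the kinases Plk1, Aurkb and Melk, and the centromere proteins Cenpa and Cenpf. They also hold Ndc80 and Spc25 of the Ndc80 complex, the midzone and cytokinesis genes Prc1, Kif4, Kif20a, Kif23, Racgap1 and Anln, and the cohesion genes Cdca5 and Esco2. The rest are Kif22, Kif2c, Ncaph, Ncapd2, Cdca2 and Foxm1. Of the 2 transcription factors, Mybl2 was called once and Foxm1 never. Of these 23, Cenpa (5.73), Ncapd2 (5.40), Ndc80 (4.63) and Cdc20 (4.28) had an overall mean above log2 4. Their lowest single arrays lay at 5.31, 4.20, 3.16 and 3.81. The pooled SD of the 47 genes within groups ran from 0.14 to 0.74, with a median of 0.26. How far low signal or this spread kept genes from being called was not tested. Ndc80 varied widely within a group, at 4.66, 4.37, 4.70, 6.61 and 4.64 in none cells of day 10.

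Other genes of mitosis, a list of 54 of which 49 were measured, were set beside the members. In high against none cells of day 10, 4 of the 49 rose and 0 fell, where 2.77% of all genes rose. These were Kif18a, a kinesin that damps chromosome movement (0.99 ± 0.21, adjusted p = 0.00138), the kinetochore genes Knl1 (0.68 ± 0.21, adjusted p = 0.0425) and Ska1 (0.53 ± 0.12, adjusted p = 0.00292), and Tuba1b, an alpha tubulin (0.32 ± 0.07, adjusted p = 0.00100). In day 10 none against naive cells 1 of the 49 was higher and 4 were lower (1.41% of all genes lower), and in day 30 none against naive cells 0 were higher and 6 lower (2.35% lower). Cdc25b, a phosphatase that activates Cdk1, ran against the rest, higher in day 10 none (1.76 ± 0.29, adjusted p = 5.03e-05), int (1.29 ± 0.31, adjusted p = 0.00795) and high cells (1.94 ± 0.31, adjusted p = 1.31e-05) than in naive cells. Cks2, a small partner of Cdk1, was lower in day 30 none than in naive cells by 2.59 ± 0.65 on the log2 scale (adjusted p = 0.0117). Without naive arrays 3 to 5 Cdc25b was still called in day 10 none (1.84 ± 0.39, adjusted p = 0.00546) and high cells (2.02 ± 0.41, adjusted p = 0.00104), but not in int cells (1.37 ± 0.41, adjusted p = 0.0957), and Cks2 was not called (-1.81 ± 0.85, adjusted p = 0.353). In low and int against none on either day, 0 of the 49 were called.

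A list of 21 genes was taken as genes that hold cells out of the cycle. It includes Lin9, Lin37, Lin52 and Lin54 of MuvB, which also acts with B-Myb and FoxM1. Of the 21, 3 were lower in high than in none cells of day 10 and 0 higher, where 2.48% of all genes were lower. Foxo1, a transcription factor of resting T cells, fell by 0.85 ± 0.17 on the log2 scale (adjusted p = 4.52e-04), the antiproliferative gene Btg2 by 0.85 ± 0.25 (adjusted p = 0.0283) and Foxo3 by 0.81 ± 0.18 (adjusted p = 0.00270). Against int, 5 were lower in high cells, where 1.59% of all genes were lower: these 3, Ccng2 (-0.91 ± 0.23, adjusted p = 0.0162) and Rb1, the retinoblastoma protein (-0.66 ± 0.19, adjusted p = 0.0365). In int against none cells of day 10, Klf2, a factor of quiescent T cells, was lower (-0.83 ± 0.21, adjusted p = 0.0297) and the other 20 were not called. Of all genes, 1.24% were called there. On day 30, int cells had Rb1 higher than none cells (0.72 ± 0.17, adjusted p = 0.00832), and low cells had Btg1 higher (0.58 ± 0.14, adjusted p = 0.0416) and Klf2 lower (-0.82 ± 0.20, adjusted p = 0.0347). Of all genes, 2.21% were called in int and 0.654% in low cells of day 30 against none. Against naive cells, 2 of the 21 were higher and 0 lower in day 10 none cells, 1 and 0 in day 30 none cells, 1 and 0 in day 10 int cells, and 1 and 2 in high cells. In the same order, 3.3%, 4.33%, 3.15% and 4.82% of all genes were called in either direction. A count of 1 among 21 genes lies near such shares. Klf2 was higher in day 10 none (1.26 ± 0.20, adjusted p = 2.41e-05), day 30 none (1.20 ± 0.20, adjusted p = 7.05e-05) and day 10 high cells (1.06 ± 0.21, adjusted p = 5.08e-04). The other calls were Cdkn1b (p27), higher in day 10 none cells (0.74 ± 0.20, adjusted p = 0.0196), Rbl2 (p130), higher in int cells (0.85 ± 0.17, adjusted p = 0.00102), and Foxo1 (-0.69 ± 0.17, adjusted p = 0.00555) and Ccng2 (-0.75 ± 0.22, adjusted p = 0.0339), lower in high cells. Without naive arrays 3 to 5 the calls of Klf2 in both none groups (adjusted p = 0.0271 and 0.0367) and of Foxo1 (adjusted p = 0.0136) held. Those of Klf2 in high cells (adjusted p = 0.0749), Cdkn1b (above 0.99), Rbl2 (0.0742) and Ccng2 (0.130) did not.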

How the data were processed

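The deposited log2 signals, 1 per probe set and given to 2 decimals, entered the analysis unchanged. That the logarithm is to base 2 was inferred from their range (1.46 to 13.87); how the authors corrected background, summarized and normalized was not given in the sources used here. Per the labels' protocols, cells were sorted into Trizol, and little RNA was amplified (Ovation Pico WTA V2) and biotin-labelled before hybridization, which can compress low signals. Of 41345 probe sets, 23521 carried 1 symbol, 1814 several and 16010 none; the single-symbol probe set with the highest mean was kept for each gene, leaving 22180 genes with no filter on signal.

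All 43 arrays entered 1 limma 3.58.1 fit (in R 4.3.3), which estimated 9 group means, and eBayes with a variance trend. It gave 14 differences and 2 interactions, with calls at p under 0.05 after Benjamini-Hochberg adjustment across all genes; it was tested on simulated data. The 16 members Mki67, Top2a, Smc4, Nusap1, Cdk1, Ccna2, Ccnb2, Plk1, Aurkb, Bub1b, Kif11, Cenpe, Birc5, Foxm1, Mybl2 and Stmn1 were fixed for the repeats; up to 8 called members with the largest change per direction were named too. The members, lists, markers and most alternatives were chosen with earlier results of these data known. Array number limits the precision of every value. Replicate numbers did not pair samples. Alternatives were quantile normalization, no variance trend, only the groups compared, array quality weights, the mean of a gene's probe sets, a filter at log2 4, the replicate number as a block, and arrays left out singly or together.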

Additional observations from a re-analysis of the deposited data

Results flagged for a closer look

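Values that lay far from the rest of their group by Dixon's gap test at its 95% level are given here, 12 among 153 sets of values by group; chance gives about 1 in 20. The mean of the 47 genes was 3.88 in day 10 int array 4, with the other int arrays at 3.63 to 3.66, and 3.71 in day 30 int array 3, with the others at 3.55 to 3.59. In day 10 int array 4 Ccnb2 was 3.98 (others 3.68 to 3.72). In day 30 int array 3 Mki67 was 5.07 (others 3.69 to 4.01), Birc5 3.55 (2.53 to 2.75) and Foxm1 3.48 (3.39 to 3.41). That array also had the highest sum of B and plasma cell markers of its group, 7.85 with the others at 6.96 to 7.32. In the arrays of this group Pou2af1 ranged from 5.94 to 7.38, and no other marker of that list exceeded 3.72. The part of such cells in these values was not tested. Kif11 was 3.67 in day 30 none array 3 (others 2.79 to 2.91), and Cenpe was 3.10 in day 30 off array 5 (others 3.47 to 3.61). In day 10 low cells Birc5 was 2.56 in array 2 (others 2.73 to 2.78) and Foxm1 2.71 in array 5 (others 3.16 to 3.32). Mybl2 was 3.89 in high array 3 (others 3.34 to 3.42), and Stmn1 was 3.56 in day 30 low array 1 (others 3.19 to 3.26).

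Between the days, the int effect on Smc4 (int minus none) differed by -0.75 ± 0.14 (day 30 minus day 10, adjusted p = 0.00484 by limma over all genes), with no overlap of int and none arrays on day 10 and a fold change near 0 on day 30 (0.03, adjusted p = 0.942). Day and series of sorts cannot be told apart.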

How the results depend on the processing

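No call of the 16 members fixed for repeats changed direction under any alternative tried. Direction was not checked in this way for the other genes. Differences between group values of the mean over the 47 genes moved by less than their spread under quantile normalization and with the mean of all probe sets. The naive mean was 4.08 with all 5 arrays (SD 0.17), 3.97 without arrays 3 and 4 and 3.90 without arrays 3, 4 and 5, the last a move larger than the SD. For the 16 members fixed for repeats, 51 calls gave 892 values under the alternatives, of which 144 fell short of the threshold and 0 were reversed. Counts of called members that moved by over 1.5 times were these; the cause was not tested unless named. With quantile normalization they were 0 for low against none on day 10, 1 for none and 2 for int between the days. Without a variance trend they were 0 for low against none on day 10 and 2 for int against none on day 30. Fitting only the groups compared gave 0 for low, 9 for high against none, 4 for high against int, 0 for int against none on day 30, 4 for int against naive, 0 for none and 0 for int between the days, and 0 for the int interaction. Array quality weights gave 0 for int against none on day 30 and 2 for int between the days. Leaving out genes with a mean below log2 4, which leaves 8 members to test, gave 4 for high against none, 2 for high against int, 2 for int against none on day 30, 4 and 4 for day 10 and day 30 none against naive, 0 for int against naive and 2 for int between the days. Without naive arrays 3 and 4 the counts were 10, 11 and 2 for day 10 none, day 30 none and day 10 int against naive, and without naive arrays 3, 4 and 5 they were 2, 5 and 0. Without 4 arrays that an earlier analysis of these data doubted (naive 3 and 4, day 10 none 4 and high 2) they were 7, 12 and 3, 5 for high against naive and 0 for low against none on day 10. With the replicate number as a block the counts were 0 for low, 3 for int and 13 for high against none on day 10, 7 for high against int and 1 for int against none on day 30; no block is possible with naive cells or between the days. Same-numbered arrays did not deviate together (median correlation of -0.00 on day 10), and 2 of 18 arrays of day 10 and 6 of 20 of day 30 correlated best with their own number. Leaving out each array in turn gave 0 to 1 called members for low, 2 to 4 for int and 10 to 18 for high against none on day 10, 3 to 11 for high against int, and on day 30 0 to 0 for low, 0 to 1 for int and 0 to 0 for off against none and 0 to 0 for off against int. It gave 15 to 22 for day 10 none, 18 to 21 for day 30 none, 6 to 10 for int and 3 to 5 for high against naive, 0 to 2 for none and 0 to 2 for int between the days, 1 to 1 for the int and 0 to 0 for the low interaction. Of 84 calls of members, 51 held on each of these. Of the 47 genes, 22 had an overall mean below the lowest array median, and how far such low signal limited the calls was not tested.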
